A study of Mus musculus with 6 samples.

Results

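The Zfhx family holds the 3 mouse genes Zfhx2, Zfhx3 and Zfhx4, which encode very large nuclear proteins with many zinc fingers and several homeodomains. They were taken by symbol from the 53801 genes of the deposited count files, because their difference between the genotypes of this study had been seen. Each was found once and all 3 were among the 17514 genes kept for testing. The RNA came from the maxillary prominences of mouse embryos at E12.5 on a C57BL/6J background (strain C57BL/6 in the sample labels). The 3 control samples were wild type (WT), with no other allele named in their labels. The other 3 samples were wnt1cre; Rosa26Dlx2/- (Dlx2OE): they carried 1 copy of a Dlx2-3xFlag sequence in the Rosa26 locus, expressed from the CAG promoter once a stop cassette had been removed by Cre. The wnt1cre allele is active in the neural crest lineage, which forms the facial mesenchyme and part of the ganglia and not the epithelium, endothelium, muscle or blood of the dissected tissue. The paper calls the 3 samples of each genotype independent biological replicates. Its methods and the labels give different numbers of littermates for the RNA, so whether each RNA sample was 1 embryo or a pool cannot be told. If the samples were not separate embryos, p-values and errors measure only the spread between these samples, which may be technical.

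Zfhx proteins bind AT-rich DNA and act as activators or repressors depending on the promoter and the partner. Zfhx3, first described as ATBF1, is known for neuronal differentiation, for the timing of the circadian clock and as a tumor suppressor. Zfhx4 is known from the developing face and skeleton, where it works with the bone transcription factors Sp7 and Runx2, and from its binding to Chd4, the helicase of the NuRD chromatin complex. Zfhx2 is expressed mainly in differentiating neurons, and an antisense RNA, Zfhx2os, is transcribed across it. Dlx2, the factor overexpressed here, is a homeodomain protein of the cranial neural crest and of forebrain interneurons.

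In GRCm38 (mm10; GENCODE M21), Zfhx4 (ENSMUSG00000025255) lies on chr3:5218526-5415857 on the forward strand and Zfhx3 (ENSMUSG00000038872) on chr8:107942644-108961630 on the forward strand. Zfhx2 (ENSMUSG00000040721) lies on chr14:55060262-55092324 on the reverse strand. All 3 genes have long transcripts, with a summed exon length of 15737 bp for Zfhx4, 20976 bp for Zfhx3 and 18166 bp for Zfhx2. The coding length was 10818, 11169 and 7686 bp in that order, over 11, 16 and 10 exons of the longest coding transcript. The sequences that make these genes 1 family are shown here, since they also bear on whether reads could be shared between members. A search for codons of Trp-Phe-any-Asn-any-Arg, the core of the homeodomain recognition helix, in frame and on the coding strand, found 3 matches in each member. Among 21951 protein-coding genes, 222 (1.01%) had at least 1 such match in their longest coding sequence and 3 genes had 3 matches, which were Zfhx2, Zfhx3 and Zfhx4. In each member the 3 matches lay in 1 exon, which was exon 9 of Zfhx2, exon 15 of Zfhx3 and exon 10 of Zfhx4. The third match is given below with its flanks (60 bp, 5′ to 3′ on the coding strand, the matched codons in capitals), from chr14:55064175-55064234 (reverse strand), chr8:108951299-108951358 (forward) and chr3:5403589-5403648 (forward).
Zfhx2: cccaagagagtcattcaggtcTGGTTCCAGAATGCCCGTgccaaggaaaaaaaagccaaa
Zfhx3: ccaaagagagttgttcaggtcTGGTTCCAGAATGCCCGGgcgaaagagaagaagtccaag
Zfhx4: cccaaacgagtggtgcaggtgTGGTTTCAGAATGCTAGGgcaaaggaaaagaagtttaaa

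In these 60 bp, Zfhx2 and Zfhx3 were identical at 81.7% of bases, Zfhx3 and Zfhx4 at 75% and Zfhx2 and Zfhx4 at 73.3%. Within Zfhx3, by contrast, the third match was identical to the first at 61.7% and to the second at 63.3%, so that a homeobox resembled its counterpart in another member more than its neighbors in the same gene. Even so, the longest run of identical bases between any transcripts of 2 members was short against the 150 bp reads of these libraries. It was 25 bp between Zfhx2 and Zfhx3, 20 bp between Zfhx2 and Zfhx4 and 35 bp between Zfhx3 and Zfhx4. The last of these lies in the coding sequence outside the matched codons.
Zfhx3 and Zfhx4: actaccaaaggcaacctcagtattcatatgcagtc

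RefSeq promoters (GRCm38.p6) matched 2 of the 3 members by symbol. They are shown because the binding motif of Dlx proteins, TAATT, was searched in them, and their CG dinucleotides are in capitals. The 250 bp before the RefSeq start of Zfhx3 are chr8:108714394-108714643 on the forward strand, and those of Zfhx2 are chr14:55092049-55092298 on the reverse strand. Both windows lie inside the longer gene bodies of GENCODE.
Zfhx3: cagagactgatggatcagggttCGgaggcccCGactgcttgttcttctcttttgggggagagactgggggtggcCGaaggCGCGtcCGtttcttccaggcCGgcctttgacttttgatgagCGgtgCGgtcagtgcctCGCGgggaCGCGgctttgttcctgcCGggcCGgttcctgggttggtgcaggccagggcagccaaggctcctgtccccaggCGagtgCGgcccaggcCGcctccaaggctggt
Zfhx2: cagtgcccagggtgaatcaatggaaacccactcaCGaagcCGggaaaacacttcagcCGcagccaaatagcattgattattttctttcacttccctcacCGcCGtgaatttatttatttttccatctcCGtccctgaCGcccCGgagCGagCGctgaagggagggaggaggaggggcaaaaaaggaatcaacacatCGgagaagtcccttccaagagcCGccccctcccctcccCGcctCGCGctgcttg
The Zfhx3 window held 18 CG and was 66% GC, and the Zfhx2 window held 15 CG at 55.6% GC, against a median of 6 CG and 52.4% GC over 32851 promoters of the same length. TAATT, read on both strands, had 0 matches in either window, while 25% of all promoters held at least 1. This says only that these letters are not in these windows.

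Total counts on genes were between 26155500 and 31308813 per sample, and 3 counts, taken as the floor, equal 0.0955 to 0.111 CPM (the count relative to the library total, scaled by the TMM method). Intervals and floors cover counting error only. Dlx2, read from both its own locus and the transgene's coding sequence, had 42.9, 35.0 and 45.2 CPM in WT samples 1 to 3 and 119, 131 and 123 CPM in Dlx2OE samples 1 to 3, as the labels state. Maxillary mesenchyme markers, 10 genes that include Prrx1, Twist1 and Msx1, summed to 2212 to 2613 CPM in WT and 2707 to 2970 CPM in Dlx2OE, with 1 of the 10, Twist1, higher at an adjusted p under 0.05. Of these 10 markers, 6 had a positive and 4 a negative log2 fold change. The 4 were Barx1 (-0.68, without overlap), Alx1 (-0.49), Lhx8 (-0.28) and Lhx6 (-0.01), and none of them passed by edgeR. DESeq2, the alternative test, called 3 of the 10 higher and 1 lower. Dlx2OE sample 3 stood apart: 15.4% of its reads overlapped no gene, against 5.34 to 8.21% in the other 5 samples, and its neuron markers were the highest. Dlx2OE sample 1 stood apart as well, with r of log2 CPM of 0.974 and 0.964 with the other Dlx2OE samples, against 0.987 between those. Its epithelium markers summed to 1654 CPM, against 531 and 525 CPM, and Alx1 had 97.2 CPM, against 23.5 and 19.5 CPM. The epithelium markers split in this sample. Krt5 (538 CPM), Krt14 (490 CPM), Trp63 and Esrp1 lay above every WT sample. Krt8 (26.3 CPM) and Krt18 (27.4 CPM) lay below every WT sample, and Epcam and Cdh1 lay inside the WT range. Without Dlx2OE sample 1, the log2 fold changes were 2.02 for Zfhx3, 1.13 for Zfhx4 and 0.33 for Zfhx2.

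Zfhx4 and Zfhx3 were higher in every Dlx2OE sample than in any WT sample, whereas the levels of Zfhx2 overlapped between the genotypes. Zfhx3 showed the larger difference, 3.95-fold, and Zfhx4 was 2.07-fold higher. Because the members were chosen from this contrast, their differences are a description and carry no test. Zfhx4 had 209, 156 and 186 CPM in WT samples 1 to 3 and 337, 425 and 382 CPM in Dlx2OE samples 1 to 3. The lowest Dlx2OE sample was thus 1.61-fold above the highest WT sample. The WT mean of 184 ± 26.6 CPM stood against 382 ± 43.9 CPM in the Dlx2OE samples (SD, n = 3 each), and the fitted log2 fold change was 1.05 (SE 0.14).

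Zfhx3 had 45.6, 55.4 and 62.8 CPM in WT and 202, 210 and 236 CPM in Dlx2OE. The groups were further apart than for Zfhx4, with the lowest Dlx2OE sample 3.21-fold above the highest WT sample. The mean level was 54.6 ± 8.64 CPM in the WT samples and 216 ± 17.5 CPM in the others (SD, n = 3 each), with a log2 fold change of 1.98 (SE 0.14). Zfhx2 had 29.3, 40.3 and 41.4 CPM in WT and 37.9, 32.1 and 62.0 CPM in Dlx2OE. Only Dlx2OE sample 3 lay above the WT samples, and Dlx2OE samples 1 and 2 lay inside their range. Its means were 37.0 ± 6.66 CPM for WT and 44.0 ± 15.8 CPM for Dlx2OE (SD, n = 3 each). Its fitted log2 fold change, 0.25 (SE 0.25), became -0.08 without Dlx2OE sample 3. In bulk tissue, fewer cells of a type and less RNA per cell cannot be told apart.

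**Figure D1:**
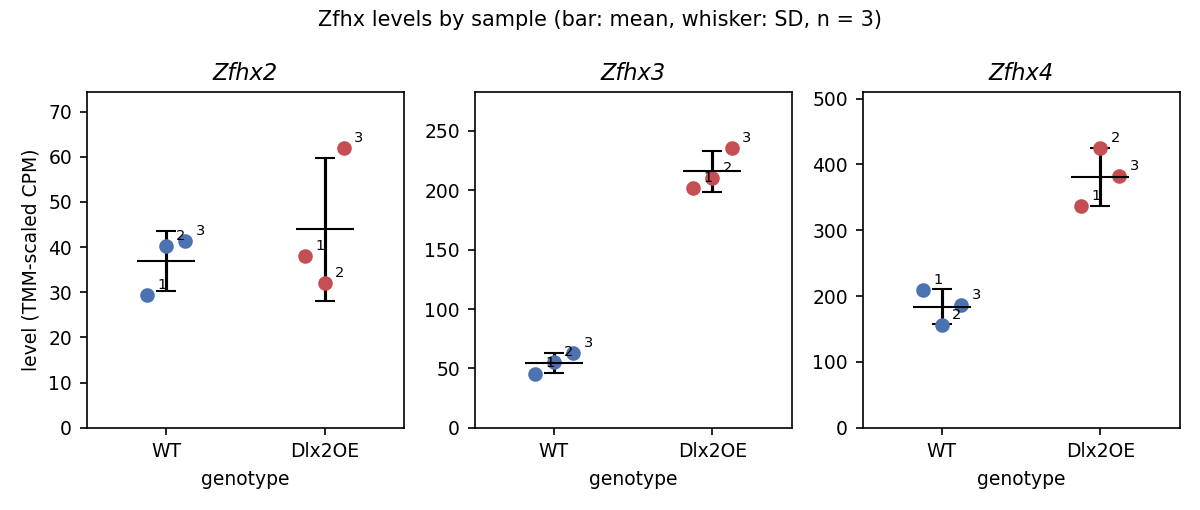
Levels of Zfhx2, Zfhx3 and Zfhx4 (y axis, TMM-scaled CPM, from 0) in each WT and Dlx2OE sample, with points numbered by replicate, the horizontal bar at the mean and the whisker at the SD (n = 3). The Dlx2OE samples of Zfhx3 (202 to 236 CPM) and Zfhx4 (337 to 425 CPM) all lie above WT, and those of Zfhx2 overlap it.

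A gene was called up- or downregulated where edgeR's quasi-likelihood test gave an adjusted p under 0.05 with a log2 fold change beyond 1 in that direction. By this rule 2 of the 3 members, Zfhx3 and Zfhx4, were upregulated, and 1.5% of all genes tested were. None of the 3 was downregulated, and 1.62% of all genes were. Samples of the genotypes did not overlap, with Dlx2OE higher, in these same 2 members and in 16.7% of all genes tested (17.3% with Dlx2OE lower). Nothing is read from these counts, since the contrast chose the members. Zfhx3 held place 125 among the 262 upregulated genes by size of its fold change, and Zfhx4, just above the threshold of 1, held place 254. The fold change of Zfhx4 lay under that threshold without WT sample 2 (0.94) and without Dlx2OE sample 2 (0.97), and under the correction for length and GC content described further on (0.78, with or without the replicate number as a block). Without Dlx2OE sample 3 the fold changes were 1.92 for Zfhx3 and 1.05 for Zfhx4.

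Within the family, Zfhx3 took a larger share of the counts in Dlx2OE. The 3 genes together summed to 275 ± 20.8 CPM in the WT samples and 641 ± 56.0 CPM in the Dlx2OE samples (SD, n = 3 each). Zfhx3 made up 19.9 ± 3.34% of the counts of the family in WT and 33.7 ± 1.93% in Dlx2OE. Its lowest and highest share in WT were 16.0% (Wilson 95% interval 15.3 to 16.8%) and 22.0% (21.1 to 23.0%), and its lowest in Dlx2OE was 31.5% (30.9 to 32.1%), so the genotypes did not overlap. The share of Zfhx2 was 13.5 ± 2.90% in WT and 6.83 ± 2.17% in Dlx2OE, also without overlap. That of Zfhx4 was 66.6 ± 6.19% and 59.5 ± 3.84%, with 1 Dlx2OE sample (63.7%) inside the range of WT (62.0 to 73.6%).

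Levels of different genes were compared per kb of summed exon length, as CPM divided by that length (RPKM). In WT the order was Zfhx4 at 11.7 ± 1.69, Zfhx3 at 2.60 ± 0.41 and Zfhx2 at 2.04 ± 0.37 RPKM (SD, n = 3 each). In Dlx2OE it was Zfhx4 at 24.2 ± 2.79, Zfhx3 at 10.3 ± 0.84 and Zfhx2 at 2.42 ± 0.87 RPKM. Zfhx4 stood clear of both others in all 6 samples. The WT ranges of Zfhx3 (2.17 to 2.99 RPKM) and Zfhx2 (1.61 to 2.28 RPKM) overlapped, and in Dlx2OE they were well apart. The ratio of Zfhx4 to Zfhx3 per kb was 4.61 ± 1.31 in WT and 2.36 ± 0.29 in Dlx2OE. The ratio of Zfhx3 to Zfhx2 per kb was above 1 in each WT sample (1.28 ± 0.08), but below 1 in each with the length of the longest coding transcript (0.90 ± 0.06), so the order of the pair in WT depends on the length used. Among 14751 protein-coding genes tested, Zfhx4 stood at percentile 70.5 of the RPKM levels in WT and 86.9 in Dlx2OE. Zfhx3 stood at 34.2 and 67.2, and Zfhx2 at 30.2 and 32.7.

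The annotation around each member was examined because these genes overlap other transcripts. Zfhx2os had 0 counts in all 6 samples, and 95.2% of its exon bases are shared with other genes. Gm20687, a second antisense gene over Zfhx2, was also at 0, with 97.1% of its exon bases shared. In the union mode of counting, a read pair over bases of more than 1 gene is assigned to none, and 17.9% of the exon bases of Zfhx2 are shared in this way. The level of Zfhx2 is therefore uncertain: with the length of its unshared exons it was 2.48 ± 0.45 RPKM in WT. No exon base of Zfhx3 or Zfhx4 is shared with another gene. The antisense gene 2700069I18Rik, which overlaps the start of the Zfhx4 body, had 8.61, 9.13 and 6.74 CPM in WT and 6.99, 8.79 and 8.23 CPM in Dlx2OE. It did not pass the test (log2 fold change -0.03, SE 0.19, adjusted p = 0.94) while Zfhx4, on the other strand, was higher in every Dlx2OE sample.

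Inside the body of Zfhx3 the annotation places 6 other genes, all too low to be tested. Mir3108, Gm20686 and Gm38318 had at most 5 counts in any sample. For Gm38042 the WT samples gave 1, 4 and 2 counts and the Dlx2OE samples 4, 7 and 41, and for Gm39244 they gave 0, 0 and 1 against 4, 29 and 21. Lncbate1, a long non-coding RNA of brown fat, was counted 11, 18 and 8 times against 6, 10 and 3 times. The counts of Gm38042 and Gm39244 were thus higher with Zfhx3 in Dlx2OE samples 2 and 3, and those of Lncbate1 were not. In Dlx2OE sample 1, where Zfhx3 had 202 CPM, Gm38042 and Gm39244 were at 4 counts each. The libraries do not mark strand, so these few reads cannot be told from unspliced RNA of Zfhx3.

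Genes near the members were then compared, to ask whether the difference reached beyond the family. Within 500 kb of a member lie 96 genes, of which 40 were tested: 1 was higher and 3 were lower in Dlx2OE at an adjusted p under 0.05, where 2.99% of all genes were higher and 3.46% lower. Of the 40, 18 had a positive fold change and 22 a negative one, with a median log2 fold change of -0.04 against 0.0028 over all genes tested. All 4 that passed lie near Zfhx2, where 33 were tested. Near Zfhx3, 3 genes were tested and 0 passed by edgeR, with 1 at an unadjusted p under 0.05, and near Zfhx4, 4 were tested and 0 passed, also with 1. Too low to be tested was 5033426E14Rik, 57633 bp from Zfhx3, counted 1, 3 and 0 times in WT and 13, 11 and 7 times in Dlx2OE. Gm1943, 379061 bp from Zfhx3 and also untested, went the other way, with 3, 2 and 5 counts against 1, 1 and 0.

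The neighbor that rose was Cdh24, a classical cadherin, with 36.7, 37.8 and 39.4 CPM in WT and 51.9, 57.9 and 50.7 CPM in Dlx2OE (log2 fold change 0.50, SE 0.10, adjusted p = 0.030). Psmb5, a catalytic subunit of the proteasome, fell (-0.57, SE 0.13, adjusted p = 0.042). So did Psme2, a subunit of the proteasome activator (-0.61, SE 0.14, adjusted p = 0.047), and Pck2, the mitochondrial PEP carboxykinase (-0.53, SE 0.10, adjusted p = 0.028). All 4 lie over 400 kb from Zfhx2, and within 250 kb of a member 0 of the genes tested passed by edgeR. Each of the 4 calls was lost without WT sample 1, WT sample 2, Dlx2OE sample 2 or Dlx2OE sample 3. With the correction for length and GC content, Pck2 passed (adjusted p = 0.012), whereas Cdh24 did not (0.47, adjusted p = 0.065), and nor did Psmb5 (-0.28, adjusted p = 0.15) or Psme2 (-0.39, adjusted p = 0.092). The nearest gene that does not overlap Zfhx4, Gm10748, a transcript of biotype TEC 3310 bp before its start, was counted 6, 6 and 8 times in WT and 12, 24 and 21 times in Dlx2OE. It did not pass (log2 fold change 1.54, SE 0.41, adjusted p = 0.062) and was singled out after its values were seen.

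Zfhx genes belong to the zinc finger class of homeobox genes, and the 11 other members of that class were compared with them. Of these, 10 were tested, 9 had a positive fold change and 1 a negative one, and the median log2 fold change was 0.21. Zeb2 alone passed the test, and 2.99% of all genes tested were higher. Zeb2, a repressor needed for neural crest cells to emigrate, had 106, 80.6 and 104 CPM in WT and 164, 147 and 156 CPM in Dlx2OE. Its summed exon length, 19942 bp, is close to those of the Zfhx genes. The groups did not overlap, and the log2 fold change was 0.68 (SE 0.13, adjusted p = 0.026). The call was lost without WT sample 1, WT sample 2, Dlx2OE sample 2 or Dlx2OE sample 3 (adjusted p between 0.064 and 0.085), and also after a correction for gene length and GC content (log2 fold change 0.40, adjusted p = 0.065).

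Zhx3, a transcriptional repressor, had 24.0, 23.6 and 29.4 CPM in WT and 38.0, 34.0 and 37.0 CPM in Dlx2OE. Its log2 fold change was 0.50 (SE 0.12, adjusted p = 0.052), and DESeq2 called it (adjusted p = 0.021). After the edgeR fit was corrected for gene length and GC content, it was 0.24 (adjusted p = 0.16). Adnp2, related to the neuroprotective factor Adnp, also did not overlap, at 45.5 to 47.5 CPM in WT and 53.7 to 57.2 in Dlx2OE, but its log2 fold change was 0.24 (SE 0.09, adjusted p = 0.11). The teashirt genes, which pattern trunk and craniofacial tissue, had log2 fold changes of 0.18 (Tshz1, SE 0.12), 0.33 (Tshz2, SE 0.32) and 0.09 (Tshz3, SE 0.18), and none of the 3 passed. Zeb1, a regulator of the mesenchymal state, had 0.03 (SE 0.25), Zhx2 0.09 (SE 0.21) and Homez, which lies 189301 bp from Zfhx2, -0.11 (SE 0.13). Adnp, a chromatin remodeling factor, had 0.86 (SE 0.45), and its level is uncertain because 82.1% of its exon bases are shared with another gene, as are 67.5% of those of Tshz2. Zhx1 was too low to be tested, at 2 to 9 counts in WT and 5 to 17 in Dlx2OE.

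Per kb, Zfhx4 had the highest level of the 14 genes of the class in both genotypes. In WT its range (9.92 to 13.3 RPKM) overlapped that of Tshz1 (8.68 to 10.9 RPKM), the next in order, and in Dlx2OE it lay above all others. Zfhx3 moved from place 7 to place 4 and Zfhx2 from 10 to 9. In Dlx2OE the range of Zfhx3 (9.63 to 11.2 RPKM) overlapped those of Tshz1 and Adnp2, the next above it, and not that of Zeb2 (7.37 to 8.22 RPKM), the next below it.

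**Figure D2:**
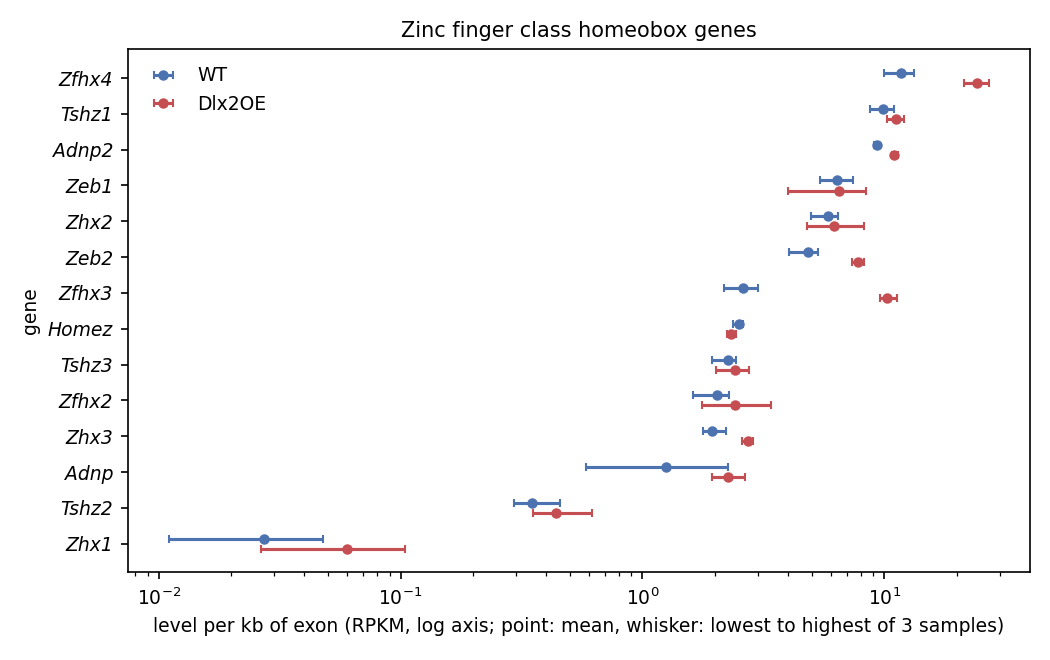
Level per kb of exon (x axis, RPKM on a log axis) of the 14 zinc finger class homeobox genes, ordered by their WT mean, with the point at the mean and the whisker from the lowest to the highest of 3 samples. Zfhx4 is the highest in both genotypes, and Zfhx3 moves from 2.60 RPKM in WT to 10.3 RPKM in Dlx2OE.

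Known partners and target genes of Zfhx3 and Zfhx4 were compared next, to see whether they differed with their regulator or partner. Of 11 genes, 10 were tested and 0 passed by edgeR, 4 of them having an unadjusted p under 0.05; DESeq2 called 1 higher, Runx3. Of all genes tested, 6.45% passed in either direction. The median log2 fold change was 0.22, with 7 genes positive and 3 negative. Sp7, the osteoblast factor that Zfhx4 joins, was counted 117, 228 and 197 times in WT and 474, 281 and 176 times in Dlx2OE, so that Dlx2OE sample 3 lay inside the range of WT (log2 fold change 0.81, SE 0.37, adjusted p = 0.18). Runx2, the osteoblast master factor, had 51.8, 58.2 and 73.5 CPM in WT and 93.0, 83.8 and 77.2 CPM in Dlx2OE. Its groups did not overlap, but it did not pass (0.47, SE 0.14, adjusted p = 0.083). Chd4, the helicase that Zfhx4 binds, had 478 to 609 CPM in WT and 643 to 723 CPM in Dlx2OE, with 0.34 (SE 0.14, adjusted p = 0.15).

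Runx3, a partner of Zfhx3, had 6.59, 3.65 and 8.85 CPM in WT and 18.3, 8.09 and 14.5 CPM in Dlx2OE, and a log2 fold change of 1.10 (SE 0.38, adjusted p = 0.11 by edgeR and 0.016 by DESeq2). Afp, the fetal serum protein gene whose AT-rich enhancer gave ATBF1 its name, had most of its counts in 1 library. WT samples 1 to 3 had 884, 38 and 13 counts and Dlx2OE samples 5, 0 and 1, without overlap. Its log2 fold change was -7.20 (SE 1.91, adjusted p = 0.060 by edgeR), and -3.55 without WT sample 1. Pdgfrb, Myb, Pias3 and Cdkn1a had log2 fold changes between -0.06 and 0.32 and did not pass, and Esr1 was too low to be tested.

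The other subunits of NuRD, which removes acetyl groups from histones and moves nucleosomes, were compared in the same way. All 13 were tested and 0 passed by edgeR, 3 having an unadjusted p under 0.05, with 6 positive and 7 negative fold changes and a median of -0.01. DESeq2 called 1 higher, the helicase Chd3, and 1 lower, the histone chaperone Rbbp7. By edgeR, Chd3 had a log2 fold change of 0.59 (SE 0.15, adjusted p = 0.057) and Rbbp7 -0.47 (SE 0.13, adjusted p = 0.062), and neither overlapped between the genotypes. Of 12 genes of endochondral ossification, the route through cartilage in which Zfhx4 is known to act with Sp7, 7 were tested. Pth1r, the receptor of parathyroid hormone-related protein, rose, with 80.0, 65.2 and 78.9 CPM in WT and 149, 106 and 113 CPM in Dlx2OE (0.72, SE 0.15, adjusted p = 0.036). It was the 1 gene that passed by edgeR, where DESeq2 called 3 (Pth1r higher, Sox9 and Matn1 lower), and its call was lost without the same 4 samples as that of Zeb2 (adjusted p between 0.066 and 0.15). The list had 2 positive and 5 negative fold changes with a median of -0.35. The cartilage factor Sox9 had -0.63 (SE 0.25, adjusted p = 0.14 by edgeR and 0.047 by DESeq2) and its target Col2a1 -0.37 (SE 0.32, adjusted p = 0.48), in samples that overlapped. Col10a1, Mmp13, Ihh, Comp and Matn1, genes of cartilage and bone, did not pass the filter on low counts of the edgeR test. Of these, Matn1, a cartilage matrix protein, was counted 10, 41 and 27 times in WT and 6, 4 and 1 times in Dlx2OE, without overlap, and DESeq2 gave it a log2 fold change of -2.79 (adjusted p = 0.016).

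The fold changes of the members have to be set beside those of other long genes, because longer genes were higher in Dlx2OE across the whole data set. Among tested genes with a summed exon length under 1 kb the median log2 fold change was -0.28, from 4 to 6 kb it was 0.04, and at 20 kb and above it was 0.41. At or above the length of Zfhx4 lie 341 other tested genes. Of these 293 (85.9%) had a positive fold change, the median was 0.35, and 65 (19.1%) were called higher, against 2.99% of all genes. The fold change of Zfhx3 was exceeded by 4 of the 341, that of Zfhx4 by 20 and that of Zfhx2 by 201. After a loess correction of the counts for length and GC content, the log2 fold change was 1.56 for Zfhx3, 0.78 for Zfhx4 and -0.21 for Zfhx2. The direction of Zfhx2 was thus reversed by this correction, and those of Zfhx3 and Zfhx4 were not. After it, 5 of the 341 genes exceeded Zfhx3 and 16 exceeded Zfhx4. The part of length or GC content in the members' differences was not tested further.

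**Figure D3:**
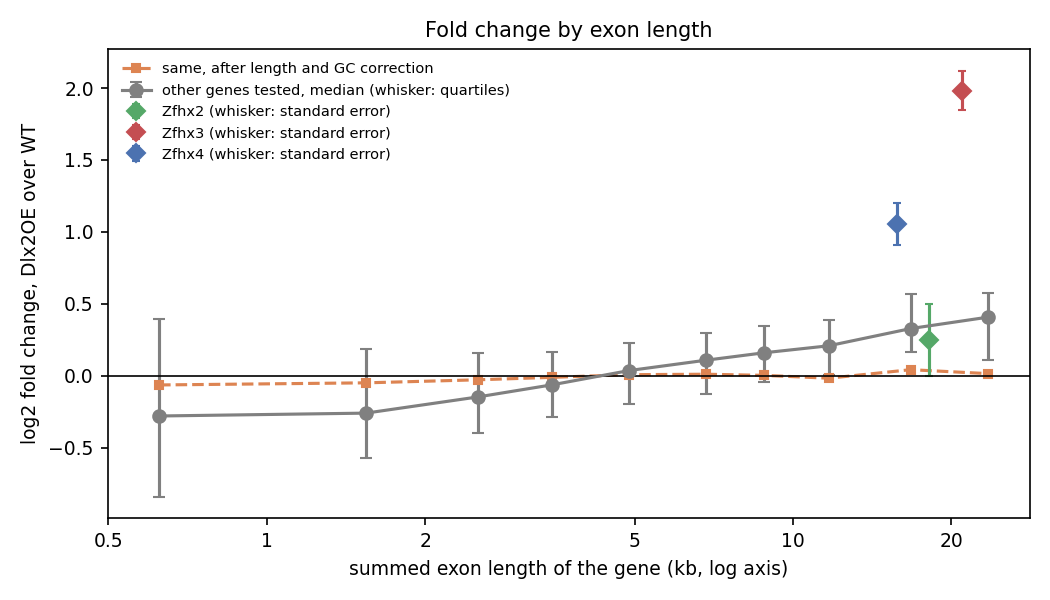
Log2 fold change (y axis, Dlx2OE over WT) against the summed exon length (x axis, kb, log axis). Grey points are medians of other tested genes in bins of length with quartiles, orange squares the same medians after the correction for length and GC content, and diamonds the members with their SE. The grey medians go from -0.28 to 0.41, Zfhx2 lies near them and Zfhx3 and Zfhx4 lie above their upper quartiles.

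With 1 sample left out, the log2 fold change ran from 1.86 to 2.08 for Zfhx3 and from 0.94 to 1.15 for Zfhx4. For Zfhx2 it ran from -0.08, without Dlx2OE sample 3, to 0.43, without Dlx2OE sample 2.

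**Figure D4:**
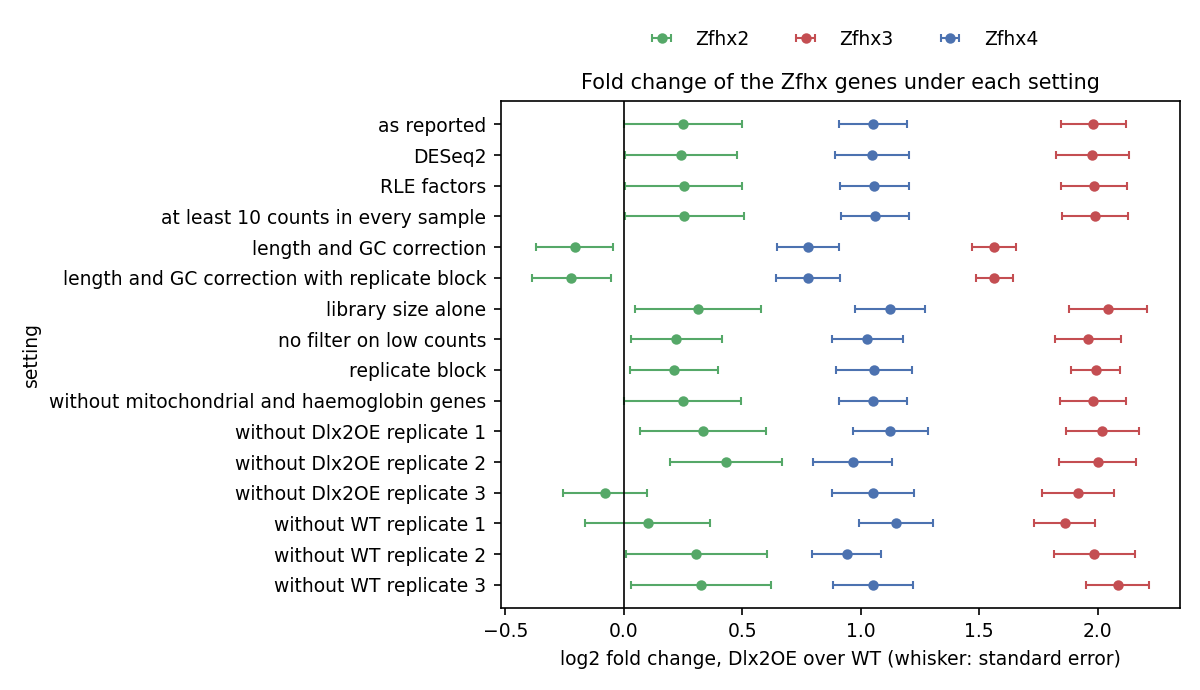
Log2 fold change of the members (x axis, Dlx2OE over WT, whisker at the SE) under each setting of the analysis (y axis). Zfhx3 stays between 1.56 and 2.08 and Zfhx4 between 0.78 and 1.15, whereas Zfhx2 crosses 0 under the length and GC correction and without Dlx2OE sample 3.

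Markers of other cell types were compared with the members by sample, since Zfhx2 and Zfhx3 are known from neurons. The 18 neuron markers summed to 191 to 544 CPM in WT and 321 to 2138 CPM in Dlx2OE. All 18 had a positive fold change, with a median of 1.58, and 0 passed by edgeR, 6 having an unadjusted p under 0.05, while DESeq2 called 2. Without Dlx2OE sample 3, 15 were positive, the median was 0.83 and 0 passed by edgeR (3 at an unadjusted p under 0.05). Without Dlx2OE sample 1, all 18 were positive, the median was 2.02 and 10 were higher at an adjusted p under 0.05. In Dlx2OE sample 1 the neuron markers summed to 321 CPM, inside the range of WT, and Zfhx3 had 202 CPM and Zfhx4 337 CPM there, above every WT sample. Single markers differed from the sum: Stmn2 had 73.3 CPM there (6.73 to 56.0 in WT) and Gap43 87.2 CPM (55.6 to 83.6 in WT). These did not overlap between the genotypes, and the other neuron markers did. Of all genes tested, 16.7% did not overlap with Dlx2OE higher. The level of Zfhx2 was highest in Dlx2OE sample 3, which also had the highest neuron markers. The part of neurons in the levels of Zfhx2, Zfhx3 and Zfhx4 was not tested. Crest glia markers summed to 141 to 148 CPM in WT and 93.2 to 316 in Dlx2OE, with Foxd3 at 0 in all samples and 0 of 5 tested genes passing by edgeR or DESeq2 (1 at an unadjusted p under 0.05). Brain and eye neuroepithelium markers summed to 93.9 to 199 CPM and 57.3 to 110 CPM, with Rax at or under the floor. Of 8 tested by edgeR, 1 was higher, Emx2 (log2 fold change 1.61, adjusted p = 0.022), and 1 lower, Sox2 (-1.67, adjusted p = 0.0084). Sox2 alone had 72.8, 118 and 99.8 CPM in WT, a large part of the sum there, and 25.9 to 35.5 CPM in Dlx2OE. Of 9 tested by DESeq2, 1 was higher and 2 lower.

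**Figure D5:**
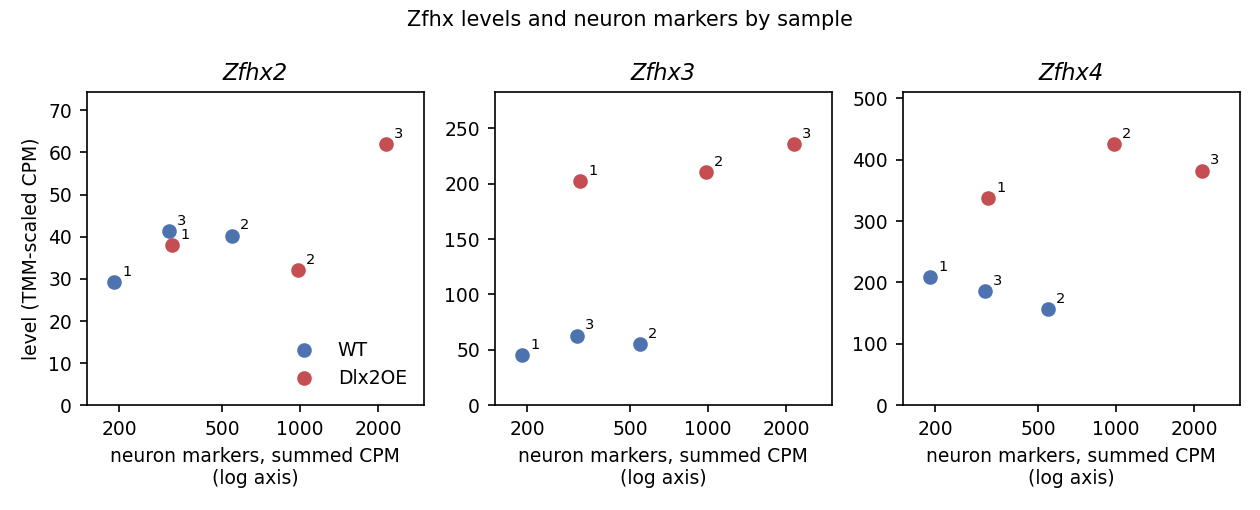
Level of each member (y axis, TMM-scaled CPM, from 0) against the summed CPM of 18 neuron markers (x axis, log axis) in each sample, numbered by replicate. Dlx2OE sample 1, at 321 CPM of neuron markers, lies among the WT samples on the x axis and above them for Zfhx3 and Zfhx4.

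Of the remaining lists, epithelium markers summed to 662 to 1178 CPM in WT and 525 to 1654 CPM in Dlx2OE. Of these 8 markers, 2 were lower and 0 higher at an adjusted p under 0.05 (5 lower without Dlx2OE sample 1). Krt5 was higher without overlap (log2 fold change 1.91, SE 0.57) and did not pass by edgeR (adjusted p = 0.079). Endothelium markers summed to 262 to 396 CPM and 186 to 291 CPM, with 1 of 6 lower, and skeletal muscle markers to 141 to 276 CPM and 57.6 to 169 CPM, with 0 of 6 passing by edgeR or DESeq2 and 1 at an unadjusted p under 0.05. Macrophage markers summed to 53.4 to 60.0 CPM and 32.4 to 44.3 CPM, with 1 of 6 lower, and erythroid markers to 3009 to 4142 CPM and 1884 to 2435 CPM, with 2 of 6 lower. These calls are those of edgeR. In the order of the lists, the genes called lower were Krt8 and Krt18, then Emcn, then C1qa, then Hba-a1 and Alas2. DESeq2 called 2 of 8 epithelium markers lower, and 3 of 6 in each of the endothelium, macrophage and erythroid lists. The erythroid and macrophage sums were lower, and the mesenchyme sum higher, in every Dlx2OE sample than in any WT sample. Prrx1 was a large part of the mesenchyme sum, with 630, 476 and 560 CPM in WT and 698, 1009 and 747 CPM in Dlx2OE. Of the 10 mesenchyme markers, 4 had a negative fold change. Of all single genes tested, 17.3% did not overlap with Dlx2OE lower and 16.7% with Dlx2OE higher. By edgeR, 3.46% of all genes tested were called lower. The part of a changed makeup of cells in the levels of the members was not tested.

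For each member, the 3 protein-coding genes most like it over the 6 samples were taken by Pearson's r of log2 CPM among 12509 genes. The 6 points share 2 genotypes, so that a high r largely repeats the difference between these, and r is given as a description. Zfhx3 was most like Cdh12, a cadherin (r = 0.994), Tbx15, a T-box factor of the skeleton (0.994), and Slco5a1 (0.992). Tbx15 had 35.6, 41.6 and 51.2 CPM in WT and 131, 119 and 160 CPM in Dlx2OE, so that it too was higher in every Dlx2OE sample than in any WT sample. Zfhx4 was most like Hdhd5 (r = 0.999), Chd2, a chromodomain helicase (0.997), and Yae1d1 (0.997), all with smaller log2 fold changes of 0.23 to 0.35. Zfhx2 was most like Ralgps1 (r = 0.981), Sdk1, a cell adhesion protein (0.978), and Kat2b, a histone acetyltransferase (0.974), with Sdk1 at 50.4 CPM in Dlx2OE sample 3 and 14.2 to 30.4 CPM elsewhere. Between members, r was 0.94 for Zfhx3 and Zfhx4, 0.41 for Zfhx2 and Zfhx3 and 0.19 for Zfhx2 and Zfhx4.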

How the data were processed

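Poly(A) RNA of 6 samples was sequenced as 150 bp paired-end reads with a kit that does not mark strand. The authors filtered the reads, checked them with FastQC, mapped them to mm10 with STAR 2.7.3a and counted read pairs per gene with HTSeq 0.12.4 in union mode. The deposited values are raw counts per gene, without normalization; the strand setting and the annotation release are not given in the sources used here. Reads assigned to no gene (5.34 to 15.4% of reads) and the other summary lines were kept out of all totals. Symbols, positions and lengths came from GENCODE M21, which holds 53706 of the 53801 identifiers.

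Genotypes were compared with edgeR 4.0.16 (R 4.3.3; filterByExpr with a minimum count of 10, TMM factors, quasi-likelihood test of genotype, Benjamini-Hochberg adjustment over 17514 genes). Thresholds were an adjusted p of 0.05 and a log2 fold change of 1 in either direction, as in the study's methods, which used DESeq2; DESeq2 1.42.0 was an alternative. The rank of likeness used log2 CPM with a prior count of 2 and a mean of at least 1. The other alternatives were RLE factors, library size alone, no filter, at least 10 counts in all samples, removal of mitochondrial and haemoglobin genes, a replicate block, a loess correction for length and GC content (span 0.5), other window sizes and transcript lengths, and each sample left out in turn. Exon length without shared bases was added after the data were seen. Replicates differed beyond sampling noise (chi-square per degree of freedom of 31.9 to 72.7).

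The members and all gene lists were chosen with earlier results of these data known. The genes named are the members, the other genes of their class, neighbors that passed or that overlap a member, up to 4 genes of each list that passed, Chd4, Sp7 and Runx2, the 3 genes most like each member, Dlx2 and markers. Adnp2, Sox9, Col2a1, the remaining partners, Chd3, Rbbp7, Gm10748, 5033426E14Rik, Gm1943, Stmn2 and Gap43 were named with their values seen. So were the single markers of epithelium, mesenchyme and neuroepithelium. One item among the partners and targets is not reported here by name. On simulated data for WT against Dlx2OE, where 200 genes were given a log2 change of 2, edgeR recovered 98% with 1 false call among 17284 genes, and DESeq2 recovered 96% with 0 among 17514. The simulation gave all genes the same spread beyond sampling noise, with no sample standing apart and no trend with gene length. These data differ in all of that, so its rates are not the error rates of the calls made here. Plots used matplotlib 3.10.9 (Python 3.11.15).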

Additional observations from a re-analysis of the deposited data

Results flagged for a closer look

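Reads that overlapped no gene, a line of the files outside the gene counts, made up 6.03, 8.21 and 15.4% of reads in Dlx2OE samples 1 to 3, above the 5.34 to 5.79% of the WT samples. Without Dlx2OE sample 3 the log2 fold change was 1.92 for Zfhx3, 1.05 for Zfhx4 and -0.08 for Zfhx2, so the direction of Zfhx2 rests on this sample.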

How the results depend on the processing

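The log2 fold change of Zfhx3 moved beyond the spread of replicates only under the length and GC correction (1.56, and 1.56 with the block) among 9 other settings, and so did those of Zfhx4 (0.78 and 0.78) and Zfhx2 (-0.21 and -0.22). Leaving out 1 sample gave 1.86 to 2.08, 0.94 to 1.15 and -0.08 to 0.43 in that order. With the longest coding transcript the WT levels per kb were 3.56 (Zfhx2), 3.18 (Zfhx3) and 16.3 RPKM (Zfhx4), and with unshared exons that of Zfhx2 was 2.48. The count of up- and downregulated genes, 546 in all, was 887 with DESeq2, 1003 without a filter, 1130 at any fold change, 119 with length and GC correction and block, and 74 (without WT replicate 2) to 1173 (without Dlx2OE replicate 1) with 1 sample left out. Without Dlx2OE replicate 3 it was 254, without Dlx2OE replicate 2 it was 187 and without WT replicate 1 it was 153.

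Calls among the other zinc finger class homeobox genes (1) were 2 with DESeq2 or 10 counts in every sample, 0 with either length and GC correction, and 0 to 3 with 1 sample left out. Partners and targets (0) had 1 call with DESeq2 or the correction with block, 2 without a filter or with the block, and 0 to 2 with 1 sample left out. NuRD subunits (0) had 2 with DESeq2 and 0 to 2 with 1 sample left out. Endochondral genes (1) had 3 with DESeq2 or no filter, 2 with the correction or the block, and 0 to 2 with 1 sample left out. Neighbors (4) had 8 with DESeq2, 7 without a filter or within 1000 kb, 2 with the correction or the block, 0 with both or within 250 kb, and 0 to 7 with 1 sample left out. The marker lists without Dlx2OE replicate 1 or 3 were added after the data were seen. The cause of these shifts was not tested. Samples with the same replicate number did not deviate together (r = -0.07, -0.21 and 0.07). This cannot exclude that the numbers pair the samples, because deviations within a group of 3 add up to 0 and tie these values together. With the replicate block, 398 genes were up- or downregulated. Depth did not limit the members, whose lowest count was 858.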
